A study of Schizosaccharomyces pombe with 36 samples.

Results

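The change in labelled RNA between time points 5 and 20 was followed in Schizosaccharomyces pombe cells lacking slr1. The comparison used 6 of the 36 libraries of the series: the 3 knockout libraries labelled 5 and the 3 labelled 20, chosen by their labels and paired by culture. Both groups were strain yMAB001, labelled as slr1- knockout cells, and both had been given 5 mM 4-thiouracil; they differed in the time point at which a portion of the culture was taken. The time points carry no unit in the labels and are given as bare numbers. The matching wild-type (WT) libraries, strain yAS99, came from 3 cultures under the same treatment and are set beside the knockout where a difference between genotypes was tested. The study holds 12 groups of 3 libraries: for each genotype, unselected RNA and RNA pulled down at 5 labelled time points. Cultures were started from single colonies, and RNA carrying the thiol-bearing uracil was purified with biotin and streptavidin and sequenced after a stranded mRNA preparation. How slr1 had been removed, and whether the strain is 1 clone is not given in the labels.

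4-Thiouracil is taken up by yeast and built into new RNA in place of uracil, so RNA pulled down soon after its addition is enriched in recent transcripts, and the pulled-down pool comes to hold more of the stable ones as labelling goes on. Slr1 belongs to the La-related proteins. LARP1, a mammalian member of this family, binds mRNAs with a 5' terminal oligopyrimidine tract. Most of these mRNAs code for ribosomal proteins or factors of translation. In fission yeast, many ribosomal protein promoters carry a box called HomolD, whereas chaperone promoters carry heat shock elements, inverted repeats that the heat shock factor binds.

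The 6 libraries held 1621166 to 5204265 counts on S. pombe genes. They also held human counts, whose role the labels do not state and which made up 18.4, 18.8 and 16.9% of all counts on genes at 5 in cultures 1, 2 and 3 and 8.89, 15.3 and 8.48% at 20. S. pombe counts per human count went from 4.43 to 10.2 in culture 1, from 4.32 to 5.51 in culture 2 and from 4.92 to 10.8 in culture 3. The log2 ratio averaged 0.898 ± 0.475 (SD, n = 3), with culture 2 lowest, and an exact test over 3 pairs cannot give a p below 0.25. Culture 2 also differed from cultures 1 and 3 in its fly counts: fly counts per human count in unselected RNA were 1.07 in culture 2, against 2.15 and 1.85. This ratio splits the 6 cultures of the study at 1.5 into 2 culture sets, with knockout culture 2 and WT cultures 1 and 2 below it. The slr1 transcript (SPAC1527.03), scaled over the 12 knockout and WT libraries, stood at 3.66, 19.2 and 4.56 CPM in the knockout at 5 and at 8.32, 18.7 and 8.35 CPM at 20. In the WT cultures it stood at 285, 177 and 203 CPM at 5 and at 219, 137 and 171 CPM at 20, so each knockout library lay below each WT library. Within the knockout, slr1 gave a log2 fold change of 0.34 ± 0.27 (SE, edgeR adjusted p = 0.369).

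At 20 the labelled RNA held larger shares of chaperone, ribosomal protein, translation factor, glycolytic and respiratory chain mRNAs than at 5, and smaller shares of the mRNAs of transcription factors and some mitotic regulators. Of 5462 genes tested with edgeR, paired by culture, 832 rose (15.2%) and 512 fell (9.37%), at an adjusted p below 0.05. The changes were mostly small: the median log2 fold change was 0.47 among genes that rose and -0.36 among those that fell, with 40 and 4 genes beyond 1 in size. Among the 832, 815 moved up in all 3 cultures, and among the 512, 503 moved down in all 3. The paired test on these same libraries favours such genes, so these counts are a description and not separate evidence. The median over all tested genes was -0.03.

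These counts are shares of a library, so a change of RNA per cell and of the number of cells that carry a transcript cannot be told apart, and the direction of small changes depended on the scaling. Scaled to human counts, the median of all genes shifted to 0.71, and 1021 genes rose and 0 fell, with 2167 at an unadjusted p below 0.05 (edgeR); with total counts in place of TMM factors, the median was -0.18, and 497 rose and 1714 fell. All falls below are therefore relative to the other S. pombe mRNAs. No gene passed without the culture pairing, where 503 had an unadjusted p below 0.05. DESeq2 with the pairing called 552 higher and 128 lower, and a fit of the 15 labelled knockout libraries called 179 higher and 20 lower.

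**Figure D1:**
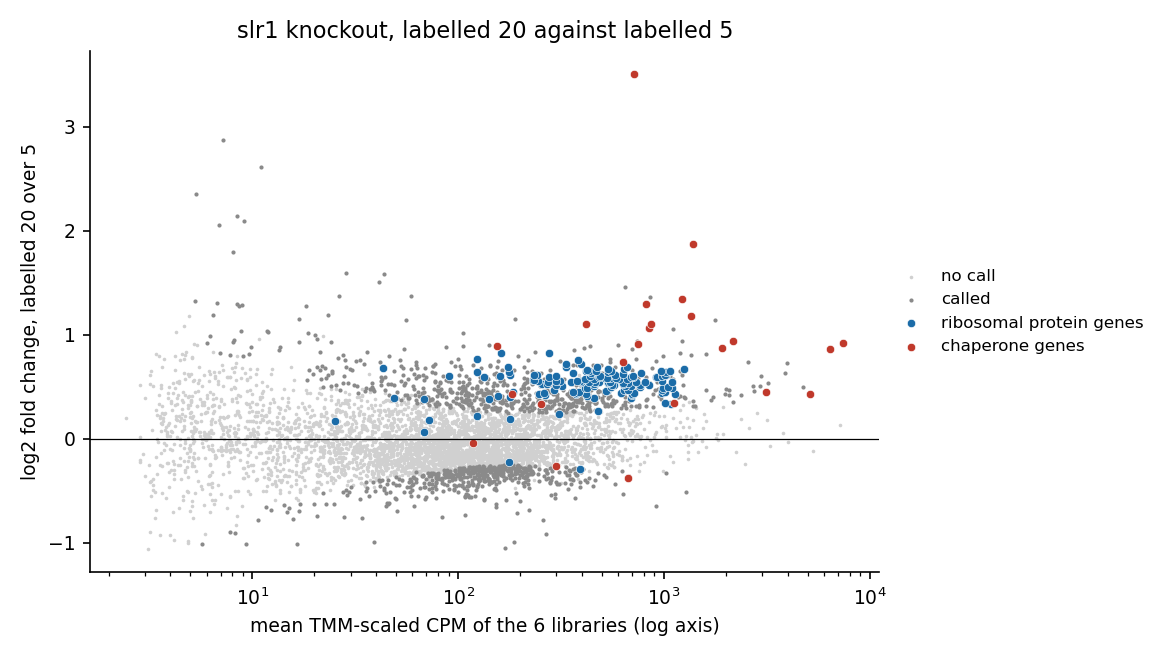
Log2 fold change of labelled 20 over labelled 5 in the slr1 knockout (vertical axis) against the mean level in CPM on a log axis, 1 point per tested gene. Most of the 142 ribosomal protein genes form a band near 0.55, and the chaperone genes reach from -0.38 to 3.50.

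Chaperones gave the largest rises. Of 23 genes for heat shock proteins and chaperones, 20 rose (background 15.2%) and 0 fell, with a list median of 0.89 against -0.03 for all genes. The largest change among protein-coding genes was that of hsp16 (SPBC3E7.02c), a small heat shock protein that holds unfolded proteins. It stood at 22.1, 155 and 124 CPM at 5 in cultures 1, 2 and 3 and at 1594, 299 and 2082 CPM at 20. All 3 values at 20 exceeded all 3 at 5, but culture 2 ended lowest after starting highest. The log2 fold change was 3.50 ± 0.56 (SE, edgeR adjusted p = 0.000416), with culture values of 6.14, 0.95 and 4.06.

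The cytosolic Hsp70 gene ssa1 (SPAC13G7.02c) went from 314, 439 and 1019 CPM to 2258, 927 and 3396 CPM, a log2 fold change of 1.87 ± 0.21 (SE, edgeR adjusted p = 4.82e-05). The groups overlapped, since culture 3 at 5 was above culture 2 at 20, although all 3 cultures moved up; ssa1 has a close paralog, ssa2, with which it may share reads. For sti1, which links Hsp70 to Hsp90, levels were 596, 309.9 and 1101 CPM at 5 and 2248, 598 and 2491 CPM at 20, with a log2 fold change of 1.35 ± 0.15 (SE, edgeR adjusted p = 4.82e-05). Partners of these chaperones rose as well. The Hsp70 nucleotide exchange factor fes1 reached 1.36 ± 0.18 (SE, edgeR adjusted p = 0.000133), the disaggregase hsp104 1.30 ± 0.19 (SE, edgeR adjusted p = 0.000208), the p23 cochaperone wos2 1.18 ± 0.14 (SE, edgeR adjusted p = 6.89e-05) and the cyclophilin wis2 1.14 ± 0.13 (SE, edgeR adjusted p = 4.82e-05) on the log2 scale. The mitochondrial chaperonin partner hsp10 gave 1.10 ± 0.13 (SE, edgeR adjusted p = 4.82e-05), from 573, 416 and 613 CPM to 1489, 671 and 1443 CPM. Of these 8 genes, picked for their large rises, the groups did not overlap for hsp16 and hsp10. How often groups did not overlap over all tested genes was not counted. Here and below, overlap or its absence only describes the named genes, which were picked from these same libraries.

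Of the other genes among the 10 largest rises, slt1 gave 1.46 ± 0.21 (SE, edgeR adjusted p = 0.000198) and mug35 1.15 ± 0.16 (SE, edgeR adjusted p = 0.000179). hsp90 (chosen after its values were seen) went from 5093, 1981 and 8412 CPM to 11286, 3542 and 14345 CPM, a log2 fold change of 0.92 ± 0.12 (SE, edgeR adjusted p = 0.000146). The 3 chaperone genes that did not pass were hsp9, hsf1, which encodes the heat shock factor, and cns1, at -0.38, -0.26 and -0.04. The rises were smallest in culture 2 for each of the 10 genes with the largest change. In the 12-library fit, hsp16 changed more in the culture set with the higher fly-to-human ratio, by 3.70 ± 0.31 (SE, edgeR adjusted p = 7.09e-07), fes1 by 1.13, hsp104 by 1.14 and ssa1 by 1.09; over all genes, 60 of 5678 (1.06%) changed more there and 1.41% differed in either direction; what else sets the culture sets apart was not tested. The chaperone list median was 1.10, 0.67 and 0.89 in cultures 1, 2 and 3. Leaving out culture 1, 2 or 3 left 16, 20 and 16 chaperone genes higher; 20 rose when scaled to human counts and 16 with total counts.

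The upstream sequences of hsp16, ssa1, wis2 and sti1 are shown because they are among the 10 largest rises and hold a match to a heat shock element. hsp10 also held one within 250 bases, and slt1, fes1, hsp104, wos2 and mug35, the other 5 of the 10, had none of these letters in that window. They are the 150 bases before the annotated start of the gene in RefSeq's ASM294v3 assembly, read on the gene's strand, with the match in capitals: GAANNTTC for hsp16 and sti1, and for ssa1 and wis2 a longer form that contains it and adds NNGAA, where the wis2 match lies on the other strand.
hsp16, II:2660993-2661142 (-): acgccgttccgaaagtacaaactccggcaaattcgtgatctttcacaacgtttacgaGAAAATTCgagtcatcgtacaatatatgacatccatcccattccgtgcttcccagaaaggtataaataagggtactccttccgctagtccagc
ssa1, I:2297965-2298114 (-): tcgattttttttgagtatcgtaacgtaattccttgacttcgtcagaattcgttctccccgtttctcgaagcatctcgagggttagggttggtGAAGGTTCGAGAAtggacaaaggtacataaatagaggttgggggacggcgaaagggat
wis2, I:4931164-4931313 (-): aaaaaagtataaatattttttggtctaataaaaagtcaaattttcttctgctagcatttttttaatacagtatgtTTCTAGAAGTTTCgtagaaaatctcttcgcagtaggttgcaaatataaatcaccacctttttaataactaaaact
sti1, III:1263576-1263725 (-): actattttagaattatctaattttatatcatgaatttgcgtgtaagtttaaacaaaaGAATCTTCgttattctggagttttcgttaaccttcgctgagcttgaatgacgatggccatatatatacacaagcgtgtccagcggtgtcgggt
Searched on both strands of the 250 bases before the start, GAANNTTC lay in 12 of the 23 chaperone promoters and in 483 of 5108 promoters (9.46%), and the longer form in 2 and 20 of them (0.392%). These motifs were chosen after the values were seen. Over all tested protein-coding genes, the median log2 fold change was -0.01 with GAANNTTC and -0.04 without it.

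**Figure D2:**
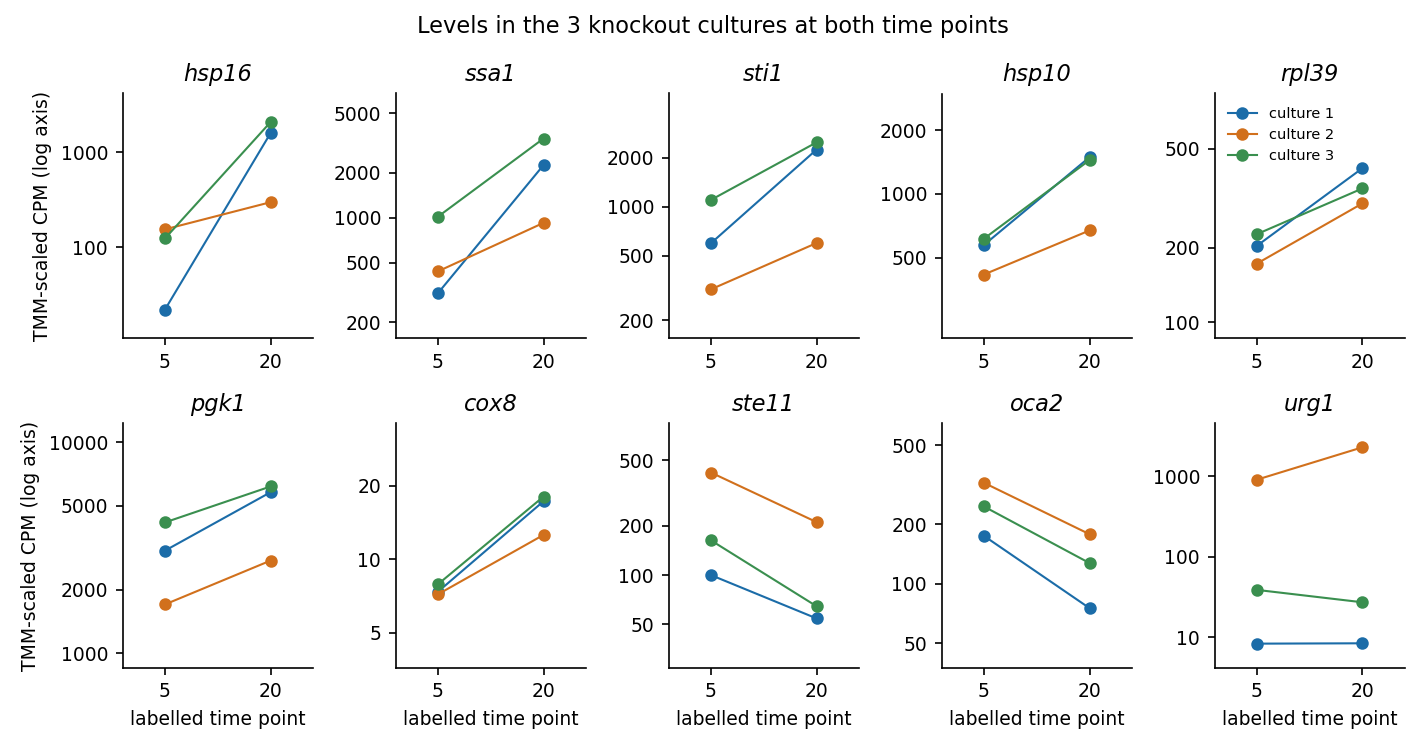
Level in CPM (log axis, its own range in each panel) of 10 genes at labelled 5 and labelled 20, with 1 line per knockout culture. The line of culture 2 is the flattest for hsp16, ssa1, sti1 and hsp10, and urg1 is abundant in culture 2 alone.

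Ribosomal protein mRNAs rose together and by little. Of 142 cytosolic ribosomal protein genes, 132 rose (background 15.2%) and 1 fell (background 9.37%), and 140 of the 142 had a log2 fold change above 0. Their median was 0.55, with 0.44, 0.70 and 0.45 in cultures 1, 2 and 3, so culture 2 was here the highest. Large-subunit genes had a median of 0.55 (69 of 74 rose), small-subunit genes 0.54 (52 of 55 rose) and genes of the acidic stalk proteins 0.52 (7 of 9 rose). Leaving out 1 culture left 117 to 132 higher; 120 rose with total counts, and 12 in the fit of 15 libraries.

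The large-subunit gene rpl39 changed most, from 203, 172 and 226 CPM to 418, 301 and 346 CPM. The groups did not overlap, and the log2 fold change was 0.82 ± 0.10 (SE, edgeR adjusted p = 5.69e-05). The small-subunit gene rps29 went from 129, 97 and 123 CPM to 241, 172 and 204 CPM, again without overlap, and gave 0.82 ± 0.09 (SE, edgeR adjusted p = 4.82e-05). Another small-subunit gene, rps3002, gave 0.76 ± 0.11 (SE, edgeR adjusted p = 0.00017). The exception was rps2202 (chosen after its values were seen), one of several genes for its protein, with 414, 487 and 387 CPM at 5 and 353, 422 and 285 CPM at 20. Its log2 fold change was -0.29 ± 0.10 (SE, edgeR adjusted p = 0.0367), which did not pass without culture 1 or culture 3 and was 0.46 when scaled to human counts. Most of these genes have near-identical paralogs, whose values are uncertain because reads with several alignments were left out of the gene counts.

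HomolD, CAGTCACA on either strand, lay within 250 bases before the start of 89 of the 142 ribosomal protein genes (62.7%) and of 134 of 5108 promoters (2.62%). The rpl39 promoter is shown as the example because this gene changed most; its 150 upstream bases in ASM294v3 hold 2 copies, in capitals, which begin 68 and 45 bases before the start.
rpl39, III:1640866-1641015 (+): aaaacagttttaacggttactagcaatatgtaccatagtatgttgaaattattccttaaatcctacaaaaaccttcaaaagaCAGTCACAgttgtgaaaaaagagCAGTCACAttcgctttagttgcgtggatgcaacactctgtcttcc
Tested genes with HomolD had a median of 0.50 against -0.05 without it. Within the ribosomal protein genes the medians with and without the box were 0.55 and 0.55, and the 44 other tested genes with HomolD had a median of 0.03. Another box of these promoters, HomolE, ACCCTACCC, was present in 41 of the 142 genes and in 65 of 5108 promoters (1.27%), with medians of 0.55 and 0.55 with and without it among ribosomal protein genes.

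The mRNAs of translation factors also rose. Of 12 genes for elongation factors and related proteins, 11 rose (background 15.2%), with a median of 0.42 and culture medians of 0.32, 0.66 and 0.33. cpc2, the RACK1 protein of the small subunit, went from 665, 1228 and 575 CPM to 870.0, 2219.9 and 856 CPM and gave a log2 fold change of 0.61 ± 0.12 (SE, edgeR adjusted p = 0.00132). Culture 2 was highest at both time points. The exchange factor subunit tef5 gave 0.59 ± 0.10 (SE, edgeR adjusted p = 0.000853) and the elongation factor 1-alpha gene tef103, which has near-identical copies, 0.52 ± 0.12 (SE, edgeR adjusted p = 0.00521). Without culture 1, 2 or 3, 9, 8 and 7 of the 12 rose, and 5 with total counts.

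Of 26 genes for initiation factors, 20 rose (background 15.2%) and 0 fell, with a median of 0.36. The culture medians were 0.33, 0.32 and 0.29, where culture 2 was not the highest. tif1, the eIF4A helicase, went from 3612, 4167 and 3899.8 CPM to 4651, 6483 and 5536 CPM without overlap, a log2 fold change of 0.50 ± 0.12 (SE, edgeR adjusted p = 0.00532), which did not pass without culture 3. The eIF4B-like gene sce3 gave 0.52 ± 0.10 (SE, edgeR adjusted p = 0.00192) and the cap-binding tif45 0.47 ± 0.09 (SE, edgeR adjusted p = 0.00177). The count was 11, 19 and 6 without culture 1, 2 and 3, and 7 with total counts. Of 112 ribosome biogenesis genes, 8 rose (7.14%, background 15.2%) and 12 fell (10.7%, background 9.37%), with a median of -0.08. The share higher was below that over all genes and the share lower was near it. Leaving out culture 1, 2 or 3 gave 3, 12 and 3 higher and 12, 11 and 4 lower, and total counts 2 and 44. Within this list nop10, a snoRNP protein, gave 0.53 ± 0.10 (SE, edgeR adjusted p = 0.00166) and rrp14 0.46 ± 0.12 (SE, edgeR adjusted p = 0.0075). Mitochondrial ribosomal protein genes had a median of 0.01, with 4 of 63 higher (6.35%) and 3 lower (4.76%), both below the shares over all genes. With total counts 0 rose and 14 fell.

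**Figure D3:**
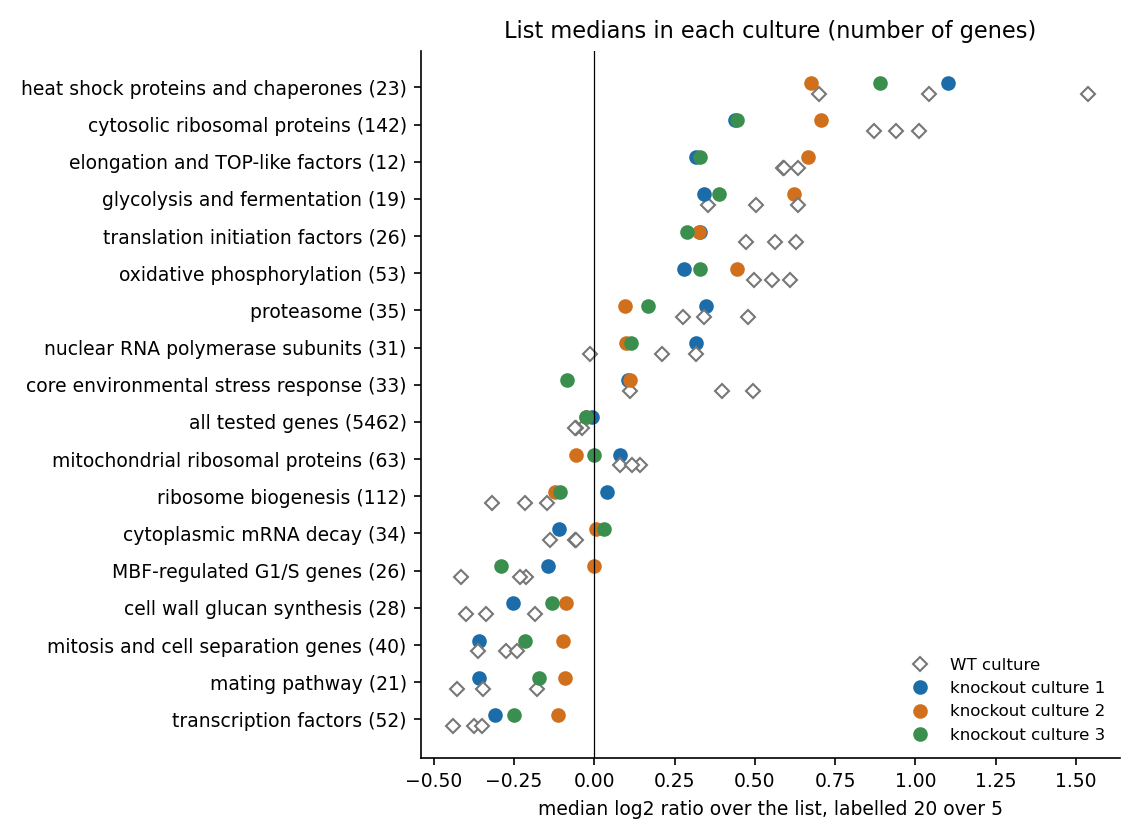
Median log2 ratio of labelled 20 over labelled 5 over the genes of each list (horizontal axis), with 1 filled point per knockout culture and 1 open diamond per WT culture, all scaled over 12 libraries. The lists run from chaperones at the top to transcription factors at the bottom, and for ribosomal proteins the 3 WT medians, 0.87 to 1.01, lie above the knockout medians, 0.44 to 0.70.

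Central carbon metabolism rose as well. Of 19 tested genes of glycolysis and fermentation, 14 rose (background 15.2%) and 0 fell, with a median of 0.43. pgi1, glucose-6-phosphate isomerase, went from 722, 675 and 777 CPM to 1223, 1173 and 1396 CPM. All 3 values at 20 exceeded all 3 at 5, and the log2 fold change was 0.80 ± 0.11 (SE, edgeR adjusted p = 0.000133). For pgk1, phosphoglycerate kinase, culture 2 at 20 lay below cultures 1 and 3 at 5, and the log2 fold change was 0.73 ± 0.12 (SE, edgeR adjusted p = 0.000494). Alcohol dehydrogenase, adh1, gave 0.64 ± 0.11 (SE, edgeR adjusted p = 0.000879). Without culture 3, 6 of the 19 rose, against 13 and 14 without culture 1 and culture 2.

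Genes of oxidative phosphorylation rose in 28 of 53 cases (background 15.2%) and fell in 1 (background 9.37%), with a median of 0.35. With total counts 18 rose and 2 fell, DESeq2 called 20 higher, and the fit of 15 libraries called 7 higher. The largest change was that of cox8, a small cytochrome c oxidase subunit, from 7.37, 7.19 and 7.91 CPM to 17.3, 12.6 and 18.1 CPM, without overlap and with a log2 fold change of 1.04 ± 0.24 (SE, edgeR adjusted p = 0.00503). The ATP synthase subunit gene atp18 gave 0.75 ± 0.18 (SE, edgeR adjusted p = 0.00551) and the oxidase subunit gene cox12 0.75 ± 0.16 (SE, edgeR adjusted p = 0.00268). The gene that fell, sdh7 (chosen after its values were seen), gave -0.42 ± 0.12 (SE, edgeR adjusted p = 0.0204), did not pass without culture 1 or culture 3, and was at 0.31 when scaled to human counts.

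The core environmental stress genes did not move as a block: 10 of 33 rose (background 15.2%) and 1 fell, with a median of 0.07, and with total counts 6 rose and 7 fell. Apart from hsp16, the highest were plr1, a pyridoxal reductase, at 0.94 ± 0.13 (SE, edgeR adjusted p = 0.000173), the glutaredoxin grx1 at 0.90 ± 0.13 (SE, edgeR adjusted p = 0.000173) and the peroxiredoxin tpx1 (chosen after its values were seen) at 0.87 ± 0.10 (SE, edgeR adjusted p = 4.82e-05). rds1 (chosen likewise) fell, with -0.55 ± 0.13 (SE, edgeR adjusted p = 0.0063), and was at 0.21 when scaled to human counts; it did not pass without culture 3.

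Genes of uracil use were examined because the cells had been given 4-thiouracil, a thiol-bearing uracil. Of 8 salvage genes, 2 rose (25%, background 15.2%) and 0 fell, with a median of 0.36. Without culture 2, however, the count was 0 higher and 2 lower and the median -0.32. Without culture 1 or culture 3, 4 rose. urg1, a uracil-regulated gene, stood at 8.29, 911 and 38.7 CPM at 5 and at 8.38, 2307 and 27.1 CPM at 20. Culture 2 held it at a far higher level than the others at both time points; the log2 fold change of 0.74 ± 0.24 (SE, edgeR adjusted p = 0.0337) rested on it and was -0.34 without it. urg3 was likewise highest in culture 2, with 0.47 ± 0.12 (SE, edgeR adjusted p = 0.00743), and did not pass without that culture. Of 6 tested genes of pyrimidine synthesis, 2 rose: ura5 at 0.52 ± 0.09 (SE, edgeR adjusted p = 0.000697) and ura6, a uridylate kinase, at 0.43 ± 0.09 (SE, edgeR adjusted p = 0.00263).

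Smaller shares rose in other groups, set here against 15.2% higher and 9.37% lower over all genes. Of 35 proteasome genes, 9 rose (25.7%) and 0 fell (median 0.21), led by the core particle subunits pre5 at 0.48 ± 0.10 (SE, edgeR adjusted p = 0.00185), pre6 at 0.42 ± 0.09 (SE, edgeR adjusted p = 0.00333) and scl1 at 0.38 ± 0.09 (SE, edgeR adjusted p = 0.00636); the count was 4, 19 and 2 without culture 1, 2 and 3 and 2 with total counts. Of 31 genes for nuclear RNA polymerase subunits, 10 rose (32.3%) and 1 fell (median 0.11), with the polymerase I subunits rpa43 at 0.63 ± 0.10 (SE, edgeR adjusted p = 0.000265) and rpa12 at 0.55 ± 0.09 (SE, edgeR adjusted p = 0.000499); 4 rose and 3 fell without culture 1, 12 and 4 without culture 2, and 5 and 9 with total counts. Among 34 genes of cytoplasmic mRNA decay, 8 rose (23.5%) and 5 fell (14.7%), and those that rose were led by Sm-like proteins of the decapping and U6 complexes. lsm1 gave 0.71 ± 0.12 (SE, edgeR adjusted p = 0.000555), lsm5 0.60 ± 0.13 (SE, edgeR adjusted p = 0.00361) and lsm3 0.56 ± 0.14 (SE, edgeR adjusted p = 0.00661); with total counts, 4 of the list rose and 15 fell, and 2, 4 and 0 fell without culture 1, 2 and 3. Of 73 splicing factors, 9 rose (12.3%) and 6 fell (8.22%), near the shares over all genes; the counts were 5 and 4, 12 and 8, and 6 and 2 without culture 1, 2 and 3, and 6 and 30 with total counts. Sterol genes rose in 9 of 24 cases (37.5%) and fell in 1, with erg5 at 0.53 ± 0.11 (SE, edgeR adjusted p = 0.00239) and erg10 at 0.51 ± 0.10 (SE, edgeR adjusted p = 0.00221), and 6, 8 and 3 rose without culture 1, 2 and 3, against 4 with total counts, where 5 fell. For cell wall glucan synthesis, 2 of 28 rose (7.14%) and 4 fell (14.3%), with 1, 10 and 3 lower without culture 1, 2 and 3 and 18 with total counts: the GTPase gene rho1 gave 0.52 ± 0.11 (SE, edgeR adjusted p = 0.00232), not passing without culture 3, and the sensor wsc1 -0.49 ± 0.10 (SE, edgeR adjusted p = 0.00148), which was 0.24 when scaled to human counts.

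The falls were smaller than the rises and were led by the regulator of sexual differentiation ste11. ste11 (SPBC32C12.02), the transcription factor that starts mating and meiosis, stood at 100, 421 and 163 CPM at 5 and at 54.4, 210.1 and 64.6 CPM at 20. All 3 cultures moved down, although culture 2 at 20 remained above cultures 1 and 3 at 5. The log2 fold change was -1.05 ± 0.10 (SE, edgeR adjusted p = 2.41e-05). mei2, an RNA-binding protein needed for meiosis, gave -0.76 ± 0.19 (SE, edgeR adjusted p = 0.00755). The kinase gene oca2 went from 175, 323 and 246 CPM to 75.4, 178 and 127 CPM, -0.99 ± 0.10 (SE, edgeR adjusted p = 2.41e-05) on the log2 scale, with culture 2 highest at both time points.

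Lists of genes tied to these programmes were compared with the 9.37% lower over all genes. Of 21 tested genes of the mating pathway, 2 fell and 0 rose, ste11 and gpa1, a G-protein subunit of pheromone signalling, at -0.40, a share of 9.52%, and 3, 6 and 2 fell without culture 1, 2 and 3. Among 17 genes of nitrogen starvation and amino acid uptake, 4 fell (23.5%) and 0 rose, with a median of -0.25: ste11, mei2, gaf1 and the peptide transporter ptr2 at -0.38. Without culture 2, 7 of them fell. Of 10 tested meiotic mRNAs that Mmi1 removes, 3 fell (30%), with a median of -0.23; they included the dynein heavy chain gene dhc1 at -0.51, and the count was 1 without culture 1 and 1 without culture 3. The mug genes, named for higher expression in meiosis, fell in 10 of 66 cases (15.2%) and rose in 2, with a median of -0.13, and 7, 6 and 4 fell without culture 1, 2 and 3. With total counts, 9 mating, 10 nitrogen and 23 mug genes fell.

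Of the other genes among the 10 largest falls, frp1, a ferric-chelate reductase, gave -1.01 ± 0.22 (SE, edgeR adjusted p = 0.00319), the GTPase gene guf1 -0.99 ± 0.19 (SE, edgeR adjusted p = 0.00125) and the F-box gene pof15 -0.78 ± 0.11 (SE, edgeR adjusted p = 0.000188). scr1, a repressor in glucose sensing, went from 90.7, 116 and 108 CPM to 51.7, 70.2 and 64.6 CPM without overlap, with -0.76 ± 0.11 (SE, edgeR adjusted p = 0.000173). The remaining 3 were cup1 at -0.76 ± 0.16 (SE, edgeR adjusted p = 0.00246), wtf19, the antidote of a meiotic driver, at -0.74 ± 0.19 (SE, edgeR adjusted p = 0.0105), and gut2, a glycerol-3-phosphate dehydrogenase, at -0.73 ± 0.16 (SE, edgeR adjusted p = 0.0039); gut2 moved by -0.06 in culture 2 and by -1.11 and -1.22 in cultures 1 and 3. Scaled to human counts, cup1 was at 0.02 and the other 9 of the 10 remained below 0, and none of the 10 passed.

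Transcription factors were the list with most falls: 18 of 52 (background 9.37%) and 0 rises, with a median of -0.25 against -0.03 for all genes. After ste11 and scr1, the largest was mbx1, a MADS-box factor, at -0.54 ± 0.10 (SE, edgeR adjusted p = 0.000879). The nutrient-sensing gaf1 gave -0.44 ± 0.10 (SE, edgeR adjusted p = 0.00445) and the iron-sensing fep1 -0.39 ± 0.10 (SE, edgeR adjusted p = 0.011). The count was 9, 27 and 11 without culture 1, 2 and 3. Scaled to human counts, 0 fell and the list median was 0.48, which is -0.22 relative to the median of all genes, while with total counts 33 fell.

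Genes of the cell cycle showed small falls. Of 40 genes of mitosis and cell separation, 8 fell (20%, background 9.37%) and 0 rose (median -0.22), including the checkpoint gene mad1 at -0.50 ± 0.12 (SE, edgeR adjusted p = 0.00651) and the Polo kinase plo1 at -0.47 ± 0.11 (SE, edgeR adjusted p = 0.00595), which did not pass without culture 3. The count was 4, 14 and 3 without culture 1, 2 and 3, and 24 with total counts. Of 26 G1/S genes under the MBF complex, 5 fell (19.2%, median -0.11), with 2, 9 and 0 lower without culture 1, 2 and 3 and 13 with total counts: the MBF subunit cdc10 gave -0.32 ± 0.09 (SE, edgeR adjusted p = 0.0206), the cyclin cig2 -0.30 ± 0.09 (SE, edgeR adjusted p = 0.0203) and the separase cut1 -0.31 ± 0.09 (SE, edgeR adjusted p = 0.0208), none of which passed without culture 1 or without culture 3. No histone gene passed among 11 tested, with htb1 at -0.13 ± 0.11 (SE, edgeR adjusted p = 0.418) and hhf2 at -0.23 ± 0.11 (SE, edgeR adjusted p = 0.145). All 7 of these named genes were above 0 when scaled to human counts.

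Of 35 vacuolar protein sorting genes, 2 rose (5.71%) and 4 fell (11.4%, background 9.37%), with 0, 2 and 1 lower without culture 1, 2 and 3, and 17 with total counts. Of 15 genes of sulfur assimilation and methionine synthesis, 4 rose (26.7%, background 15.2%) and 1 fell, against 2 and 3 with total counts. Single transporters also fell. The phosphate transporter pho84 stood at 1258, 665 and 1498 CPM at 5 and at 686, 711 and 661 CPM at 20. Cultures 1 and 3 were the higher at 5 and close to culture 2 at 20, while culture 2 moved by 0.10, and the log2 fold change of -0.65 ± 0.17 (SE, edgeR adjusted p = 0.0104) did not pass without culture 3. The hexose transporter ght4 gave -0.61 ± 0.13 (SE, edgeR adjusted p = 0.00319). Scaled to human counts, pho84 was at 0.10 and ght4 at 0.12. pho84 was 1 of 2 falls among 10 tested phosphate genes, the other being vtc4, a polyphosphate polymerase subunit, at -0.30, and ght4 was the single fall among 6 tested hexose transporters. The iron list gave 2 falls, frp1 and fep1, and 1 rise among 15. At these list sizes the shares are coarse, and with total counts 4 phosphate, 3 hexose and 5 iron genes fell; without culture 3, 0 phosphate genes fell. Of the other La-related genes, sla1 was at 0.26 ± 0.10 (SE, edgeR adjusted p = 0.0565) and pof8 at -0.20 ± 0.11 (SE, edgeR adjusted p = 0.193).

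Of 624 tested antisense and long non-coding RNAs, 38 rose and 10 fell (background 15.2% and 9.37%), with a median of 0.04; their levels were low, and strand settings of the counting are not given, so reads of overlapping genes may be included. SPNCRNA.687 stood at 2.3, 2.14 and 2.91 CPM at 5 and at 27.1, 4.35 and 27.1 CPM at 20, with a log2 fold change of 2.62 ± 0.38 (SE, edgeR adjusted p = 0.000186). It rose least in culture 2, and it overlaps cph1 on the opposite strand, which had a log2 fold change of 0.14. SPNCRNA.1653 overlaps fes1 on the same strand, and both gave similar values, 1.37 and 1.36. SPNCRNA.1353 gave 1.60 ± 0.20 (SE, edgeR adjusted p = 7.96e-05). SPNCRNA.911 (chosen after its values were seen), which overlaps no protein-coding gene in ASM294v3, went from 1.84, 0 and 3.75 CPM to 19.5, 3.04 and 14.9 CPM, with 2.87 ± 0.43 (SE, edgeR adjusted p = 0.000271). The counts were 23 and 7 without culture 1, 87 and 28 without culture 2, and 28 and 7 without culture 3. With total counts, 25 non-coding RNAs rose and 52 fell.

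The later knockout time points placed the groups on different courses. Relative to 20, the median of the chaperone genes at 50 was -0.33 in culture 1, 0.11 in culture 2 and -0.78 in culture 3 on the log2 scale, whereas that of ribosomal protein genes was 1.23, 0.72 and 0.88. ssa1, scaled over the 15 labelled knockout libraries, was at 278, 389.6 and 896 CPM at 5, at 2018, 822 and 3028 CPM at 20 and at 223, 598 and 176 CPM at 50, hence below its level at 5 in cultures 1 and 3. hsp16 was at 19.6, 137 and 109 CPM at 5, at 1425, 265 and 1857 CPM at 20 and at 611, 354 and 332 CPM at 50, still above its level at 5 in each culture. The values after 20 were not tested. For hsp90 the levels were 10088, 3139 and 12792 CPM at 20 and 7179.9, 3740.0 and 6936 CPM at 50.

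rpl39 was higher at each of the next 2 time points, with 374, 267 and 309 CPM at 20, 914, 489 and 794 CPM at 50 and 1658, 687 and 1894 CPM at 105. Medians of glycolytic genes at 125 relative to 5 were 0.76, 0.90 and 0.86 in cultures 1, 2 and 3, and those of oxidative phosphorylation 0.68, 0.54 and 0.58. Transcription factors reached -0.35, -0.33 and -0.35. All values share the libraries at 5 within a culture.

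**Figure D4:**
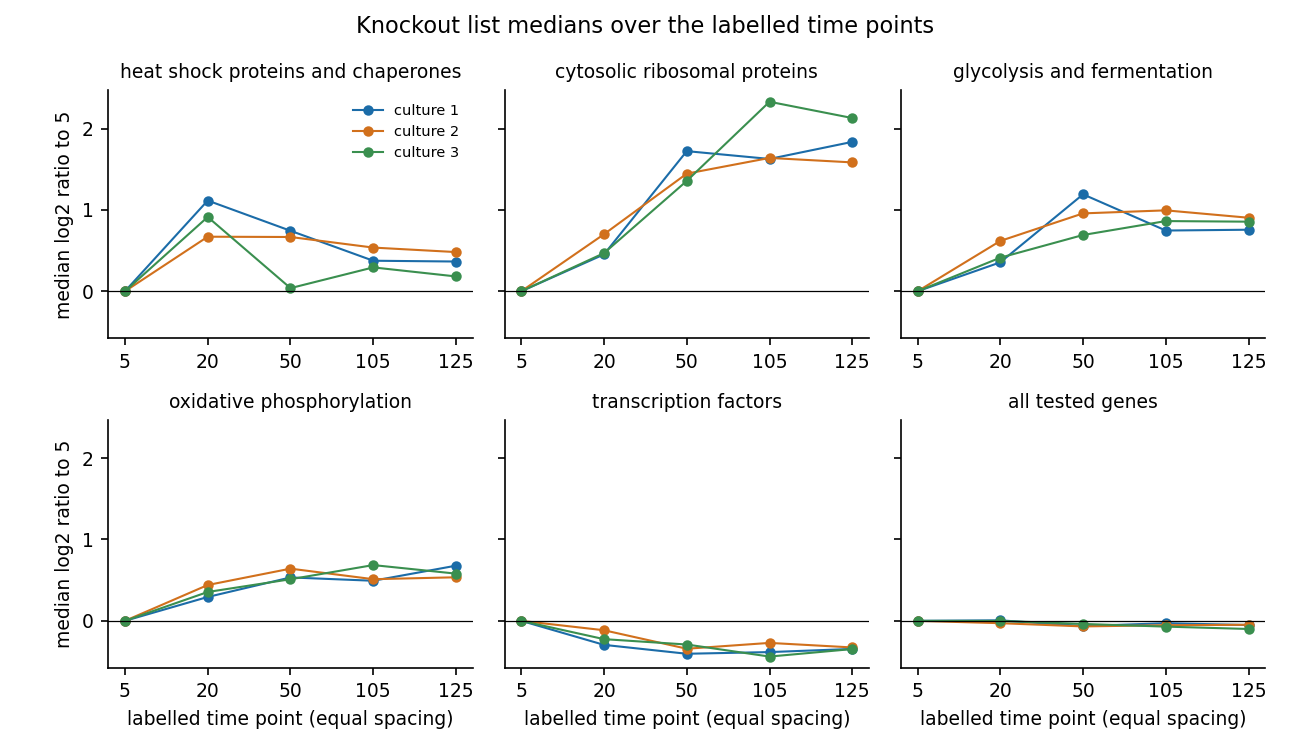
Median log2 ratio to labelled 5 over the genes of 6 lists (vertical axis) at the 5 labelled time points, spaced evenly, with 1 line per knockout culture. Chaperones are highest at 20 in each culture, at 1.12, 0.67 and 0.91, and in culture 2 are at 0.67 again at 50, whereas ribosomal proteins reach 1.84, 1.58 and 2.13 at 125.

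The size of a gene's change went with the length of its transcript. Among 4810 tested protein-coding genes with a RefSeq transcript model, Spearman's rho between length and log2 fold change was -0.41 (across genes, which share the 6 libraries), and -0.37 without ribosomal protein genes. In the shortest quintile, 186 to 1051 bases, 375 of 963 genes rose and 19 fell, whereas in the longest, 2753 to 15002 bases, 29 of 961 rose and 189 fell. The medians of these quintiles were 0.23 and -0.16, and each culture showed the order of the extremes, least steeply culture 2, at 0.18 and -0.08. The median length was 1092 bases among genes that rose and 2400 among those that fell.

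The length of the 5' untranslated region also went with the change, with a Spearman's rho of -0.27 across genes, and -0.24 without ribosomal protein genes. In its quintile of 26 to 60 bases the median was 0.08, with 27.4% higher and 5.17% lower. In that of 234 to 2778 bases the median was -0.16, with 4.48% higher and 19.3% lower. Medians lay closer together for genes grouped by introns, MCB boxes or the CRE core than for the shortest and longest quintiles of transcript length. Genes with no intron had a median of -0.09 and genes with 4 or more 0.06. MCB boxes, ACGCGT, in 135 of 5108 promoters (2.64%), and the core TGACGT of the CRE, in 282 (5.52%), went with medians of -0.06 and -0.01, against -0.04 and -0.04 without them.

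**Figure D5:**
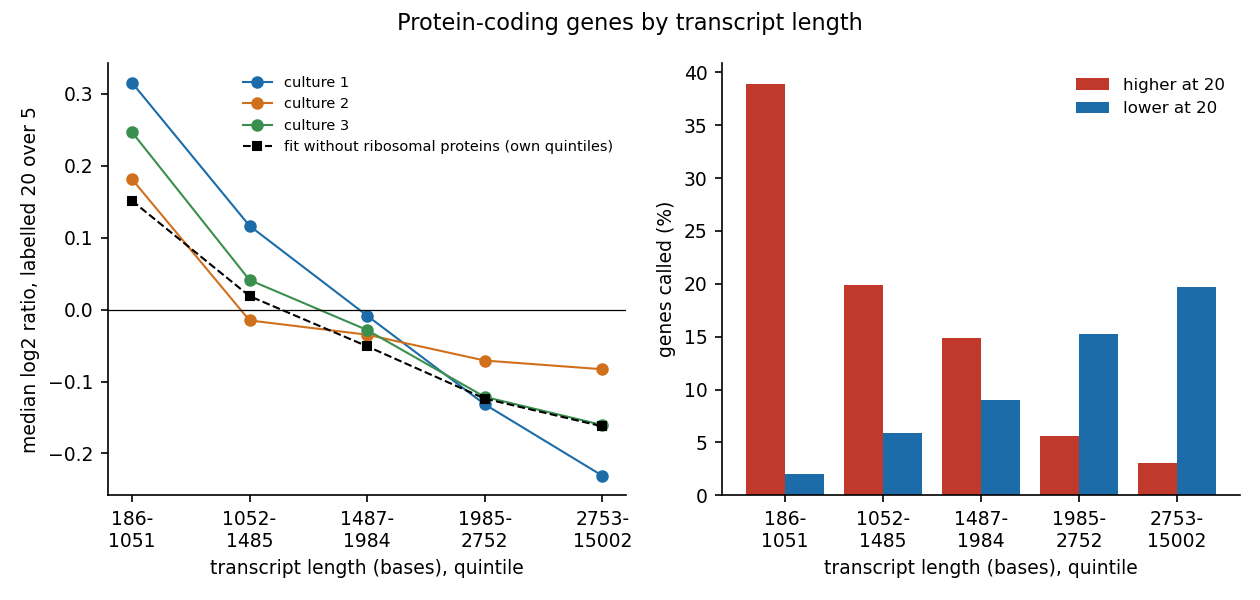
Left, median log2 ratio of labelled 20 over 5 in each knockout culture by quintile of transcript length in bases, with the fit without ribosomal protein genes as a dashed line in its own quintiles. Right, share of genes called higher and lower at 20; from the shortest to the longest quintile, the share higher goes from 38.9 to 3.02% and the share lower from 1.97 to 19.7%.

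Set beside the WT, the knockout changes ran in the same direction. Of 5678 genes tested in a fit of 12 libraries, 1362 rose in the WT (24%) and 1528 fell (26.9%), 50.9% in all. Of the 832 genes that rose in the knockout, 831 had the same sign in the WT and 792 rose there, and of the 512 that fell, 509 had the same sign and 435 fell. For no gene did the change differ between genotypes at an adjusted p below 0.05 (0%, edgeR), while 761 had an unadjusted p below 0.05. DESeq2 called 1 gene with a larger and 20 with a smaller value in the knockout. It gave 4183 of the 5678 genes no adjusted p, so its adjustment ran over fewer genes than that of edgeR. With a term for culture set, a split chosen after the data were seen, edgeR called 30 and 30. Without WT culture 2 it called 0 and 2.

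Ribosomal protein genes had the larger medians in the WT: 0.95 against 0.55 in the knockout. The knockout value was below the WT value for 140 of 142 genes, against 2693 of 5462 over all genes, and 109 had an unadjusted p below 0.05, against 754 over all genes. None of the ribosomal protein genes passed in this fit, and the culture medians were 0.94, 0.87 and 1.01 in the WT and 0.44, 0.70 and 0.44 in the knockout. The smallest p-values belonged to puf1, rps1902, rps2302, rpl3802 and oca8. rps1902 went from 166, 238 and 235 CPM to 355, 476 and 462 CPM in the WT and from 216, 213 and 198 CPM to 276, 329 and 237 CPM in the knockout. The knockout minus WT difference of its log2 fold changes was -0.60 ± 0.12 (SE), with an edgeR adjusted p of 0.173, and those of rps2302, rpl3802 and oca8 were -0.67, -0.61 and -0.52 at the same adjusted p. With a term for culture set, all 5 of these genes passed, puf1 at an edgeR adjusted p of 0.0107, rps1902, rps2302 and rpl3802 at 0.0312 and oca8 at 0.0302. The culture sets were chosen after the data were seen and these genes for their small p-values, so these passes are not separate evidence. DESeq2, which adjusted over fewer genes, called 4 of them, puf1, rps1902, rps2302 and rpl3802, and gave oca8 an adjusted p of 0.0542.

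Chaperone medians were 1.08 in the WT and 0.89 in the knockout, and the culture values overlapped. hsp16 gave log2 fold changes of 3.31, 3.65 and 6.99 in WT cultures 1, 2 and 3, against 6.14, 0.95 and 4.06 in the knockout, a difference of -1.10 ± 1.04 (SE, edgeR adjusted p = 0.684). The glutaredoxin gene grx1 gave 1.69, 1.46 and 2.29 in the WT cultures and 1.23, 0.44 and 0.99 in the knockout, a difference of -0.92 ± 0.21 (SE, edgeR adjusted p = 0.173). Transcription factors had medians of -0.39 in the WT and -0.25 in the knockout.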

How the data were processed

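RNA pulled down after 4-thiouracil labelling was sequenced from 3 slr1 knockout and 3 WT cultures. The deposited values are raw read counts per gene of S. pombe, human and fly in 1 file per library. The authors' tools, per the submitters' processing notes, were R 3.5.2, HTSeq 0.6.1p2, STAR 2.5.2a and Trimmomatic 0.36, whose settings, genome build and annotation are unstated, with the strand setting likewise not given in the sources used here. HTSeq's summary lines were left out: in the 6 libraries, reads on no feature made up 4.13 to 6.73%, ambiguous reads 0.573 to 0.647% and reads with several alignments 5.97 to 9.3% of all counts, and the last depresses genes with near-identical copies.

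Only S. pombe rows were tested. The deposited counts were scaled with TMM and tested with edgeR 4.0.16 (R 4.3.3) by its quasi-likelihood F test with Benjamini-Hochberg adjustment, with culture as a block, after filterByExpr at a minimum count of 10. Residual degrees of freedom were 2, and the median prior degrees of freedom 15.4. The SE is the log2 fold change divided by the square root of F. Culture values are log2 ratios of CPM + 0.5. The labels say that the portions of a replicate came from 1 culture; deviations from the group means correlated within cultures at 0.68, 0.86 and 0.68. The genotype difference was tested as an interaction in 12 libraries. The p-values and SEs rest mostly on a spread shared across genes, since the prior outweighs the 2 residual degrees of freedom. They do not measure the spread of a single gene between these cultures. For genes whose cultures differed widely, such as hsp16, gut2 and pho84, the culture values give that spread. DESeq2 1.42.0, other scalings, filters and left-out cultures were alternatives. The tests were also run on simulated counts, with the same dispersion set for every gene and the same change in each culture. That setting is simpler than these data, so it does not give their error rates.

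The text names the 10 largest called changes in each direction with a mean of at least 10 CPM, 3 called members of a list (2 without a call) and the 5 smallest p-values of the genotype difference; others are marked as chosen after their values were seen, except further members of a list named to account for its count. Not every gene that the rule allows is described. The genes and lists were chosen with earlier results of these data known, and 21 members were removed from lists by their product names after values were seen. Of 7268 identifiers, 6861 matched RefSeq's ASM294v3 annotation, which gave names, lengths and promoters of 250 bases; its build may differ from the authors'.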

Additional observations from a re-analysis of the deposited data

Results flagged for a closer look

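The change of puf1, which encodes a Pumilio-family RNA-binding protein, differed in sign between the genotypes: every knockout culture moved up and every WT culture moved down. The knockout cultures gave log2 ratios of 0.04, 0.09 and 0.13, with 232, 391 and 229 CPM at 5 and 239, 418 and 249 CPM at 20. The WT cultures gave -0.52, -0.52 and -0.81, with 439, 398 and 351 CPM at 5 and 306, 278 and 201 CPM at 20. The difference, knockout minus WT, was 0.69 ± 0.12 (SE) on the log2 scale with an edgeR adjusted p of 0.155, so it did not pass the test over all genes. It passed with a term for culture set, a split chosen after the data were seen, at 0.73 ± 0.12 (SE, edgeR adjusted p = 0.0107). It also passed with DESeq2, at 0.69 ± 0.15 (SE, DESeq2 adjusted p = 0.00995), in a fit that gave 4183 of 5678 genes no adjusted p. Under the other alternatives the edgeR adjusted p ranged from 0.0715 without knockout culture 2 to 0.9997 without the culture pairing. With total counts in place of TMM factors, the knockout value was -0.06.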

How the results depend on the processing

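The number of genes called in the knockout comparison, 832 higher and 512 lower (1344 in all), moved with several choices. Without the replicate block it was 0 and 0. With the block, a fit of the 15 labelled knockout libraries called 179 and 20 (199), DESeq2 552 and 128 (680), human scaling 1021 and 0, total counts without TMM 497 and 1714 (2211), and no filter on low counts 927 and 650. Leaving out 1 culture gave 561 to 946 higher, 189 to 731 lower and 750 to 1677 in all. The genotype difference, with 0 calls, gave 1 higher and 20 lower with DESeq2 (21), 30 and 30 with a culture set term (60), and 0 to 2 lower with 1 culture left out, the 2 being without WT culture 2. DESeq2 gave 4183 of the 5678 genes of this comparison no adjusted p. The 5 named genes of this comparison, puf1, rps1902, rps2302, rpl3802 and oca8, gained their call with the culture set term, and 4 of them, not oca8, with DESeq2. For the WT, 1362 and 1528 became 82 and 2 without the block (84), 5101 and 0 scaled to human counts, and 840 and 2424 with total counts; with 1 culture of either genotype left out, 991 to 1594 fell.

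Of 78 named genes that passed, 64 also passed with each culture left out, and 14 did not pass without at least 1 culture. Without the block, every named gene lost its call. Human scaling turned 18 of the named values upward: cup1 to 0.018, rps2202 to 0.46, sdh7 to 0.31, rds1 to 0.21, ght4 to 0.12, hhf2 to 0.52, htb1 to 0.62, cdc10 to 0.43, cut1 to 0.43, cig2 to 0.44, mad1 to 0.23, plo1 to 0.22, pof8 to 0.54, pho84 to 0.10, gaf1 to 0.30, mbx1 to 0.19, fep1 to 0.37 and wsc1 to 0.24. Total counts turned puf1 to -0.064, and urg1 ranged from -0.34 without culture 2 to 1.08 without culture 3. Of 33 list medians, human scaling put all 17 below 0 above it and total counts put 6 of 16 above 0 below it, while all 33 kept their side of the all-gene median under both; 29 did so without culture 1, 31 without culture 2 and 32 without culture 3. The cause of these moves was not tested. Depth limits genes with few counts, such as the non-coding RNAs.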

Other observations

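The ratio of fly to human counts in unselected RNA put knockout cultures 1 and 3 and WT culture 3 above 1.5 and the other 3 cultures below it. Taken as a term in the 12-library fit, this set, chosen after the data were seen, went with a different change from 5 to 20 at an edgeR adjusted p below 0.05 for 80 genes (1.41%), 60 with a larger and 20 with a smaller value in the set above 1.5. slt1 was larger by 1.32 ± 0.21 (SE, edgeR adjusted p = 0.00212) on the log2 scale, and grx1 by 0.69 ± 0.14 (SE, edgeR adjusted p = 0.0124). The smaller values included pho84, at -1.04 ± 0.15 (SE, edgeR adjusted p = 0.000765), and guf1, at -1.22 ± 0.24 (SE, edgeR adjusted p = 0.00997). For pho84 the log2 ratios were -0.87, 0.10 and -1.18 in knockout cultures 1, 2 and 3 and -0.51, -0.83 and -1.63 in the WT cultures. Each culture set holds cultures of both genotypes, and the labels do not say what separates them.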
